A study of Homo sapiens with 4 samples.

Results

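The transcripts described are 10 non-coding host genes of small nucleolar RNAs (snoRNAs), namely GAS5 (growth arrest specific 5) and SNHG1, SNHG3, SNHG5, SNHG6, SNHG7, SNHG8, SNHG12, SNHG15 and SNHG16. They were taken from a list of symbols drawn up with earlier results of these data known, and all 10 were found among the 18885 genes with deposited values. All libraries were of cultured MV4-11 cells, a human line of acute myeloid leukemia (AML) with an MLL rearrangement. The labels describe 2 libraries, named NC, as cells without treatment and with no shRNA, and 2 libraries, named sh-ANP32B, as cells with knockdown of ANP32B, a nuclear histone chaperone of the acidic leucine-rich family. The methods of the paper name a control hairpin, sh-NC, for this line and select stable cells with puromycin. If the NC cells carried no vector, transduction and selection cannot be told apart from the loss of ANP32B. The hairpin used is not named in the labels. Each group is 1 cell line, and the labels do not say whether its 2 libraries came from separate cultures, so p-values measure only the spread between these libraries.

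ANP32B, the targeted gene, had 358 and 364 TPM (a length-corrected share of the transcripts of a library) in NC and 54.1 and 49.3 TPM in sh-ANP32B. Sequencing depth cannot be read from TPM and is unknown here, and a TPM is a share of the RNA measured and not an amount per cell. Fewer cells of a type and less RNA per cell cannot be told apart in such bulk libraries. Mitochondrial genes held between 15.4% and 17.6% of the TPM. Of 11 myelomonocytic markers, 9 could be tested, 5 of them were higher after knockdown and 1 was lower. These shares, 55.6% higher and 11.1% lower, stand beside 26% and 19.7% of all genes tested. LYZ (lysozyme) rose from 471 and 463 TPM to 5308 and 5260 TPM and ITGAM, an integrin of myeloid cells, from 3.51 and 3.59 TPM to 26.1 and 26.4 TPM. MEIS1, a homeobox gene of MLL-rearranged leukemia, fell from 44.2 and 47.9 TPM to 30.2 and 29.6 TPM, and FLT3 did not pass, with 6.20 and 6.30 TPM against 5.52 and 5.53 TPM. The levels of CD14 and MPO were not among those tested. The host genes fell beside the rise of LYZ and ITGAM. The part of a changed cell state in the values of the host genes was not tested.

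A snoRNA host gene is spliced like a messenger RNA, but its introns carry the product. SnoRNAs are trimmed out of the introns and join a small set of proteins to guide the chemical modification of ribosomal RNA, by methylation for box C/D snoRNAs and by pseudouridylation for box H/ACA snoRNAs. The spliced exons of these hosts encode little or no protein, are read by ribosomes for a short stretch, and are in large part removed by nonsense-mediated decay (NMD). Many of them begin with a tract of pyrimidines, the 5′ TOP motif shared with mRNAs of ribosomal proteins, which ties their RNA level to growth and mTOR signaling. GAS5 takes its name from its accumulation in arrested cells.

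The starts of the host genes are shown first, because this class is known for a pyrimidine tract there. Promoters from RefSeq (GRCh38.p14) are given for 8 of the 10 genes. The windows below hold 40 bases before and 40 bases from the RefSeq start site, 5′ to 3′ on the strand of the gene. Capitals mark the unbroken run of C and T that begins at the start site, where there is one.
GAS5: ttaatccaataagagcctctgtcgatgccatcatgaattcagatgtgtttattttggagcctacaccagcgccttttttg
SNHG1: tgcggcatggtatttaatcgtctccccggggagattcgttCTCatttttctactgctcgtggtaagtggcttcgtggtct
SNHG3: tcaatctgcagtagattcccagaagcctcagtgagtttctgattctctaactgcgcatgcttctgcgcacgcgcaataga
SNHG5: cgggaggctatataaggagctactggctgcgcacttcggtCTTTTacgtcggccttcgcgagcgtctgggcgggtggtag
SNHG7: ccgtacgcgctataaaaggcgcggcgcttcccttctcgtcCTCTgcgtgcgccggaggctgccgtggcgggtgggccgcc
SNHG8: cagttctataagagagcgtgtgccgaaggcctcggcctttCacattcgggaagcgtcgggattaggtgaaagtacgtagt
SNHG12: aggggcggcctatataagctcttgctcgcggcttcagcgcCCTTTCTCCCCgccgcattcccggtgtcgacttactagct
SNHG16: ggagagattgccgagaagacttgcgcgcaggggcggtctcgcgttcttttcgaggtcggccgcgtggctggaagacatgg
These windows lie at chr1:173869006-173869085 (minus strand) for GAS5, chr11:62855846-62855925 (minus) for SNHG1, chr1:28505903-28505982 (plus) for SNHG3 and chr6:85678694-85678773 (minus) for SNHG5. Those of SNHG7, SNHG8, SNHG12 and SNHG16 lie at chr9:136728145-136728224 (minus), chr4:118278722-118278801 (plus), chr1:28581834-28581913 (minus) and chr17:76557724-76557803 (plus). A C at the start site followed by at least 4 further pyrimidines was found for 2 of the 8 genes, SNHG12 with a run of 11 bases and SNHG5 with a run of 5 bases. Among all 35116 RefSeq promoters, 4.07% had it, and among 82 promoters of ribosomal protein genes 57.3% did. When this pattern was allowed to begin within 10 bases of the start site, 5 of the 8 genes had it, beside 33.5% of all promoters. The hexamer CACGTG, the E-box to which MYC and MAX bind, which reads alike on both strands, was found in the 300-base promoter of SNHG7 and not in those of the other 7 genes, and 7.26% of all promoters hold it. The start site matters for such a match, and the outermost start in GENCODE lay between 0 and 1259 bases from that of RefSeq. The distance was 1259 bases for SNHG12 and 163 bases for GAS5. The GAS5 window lies wholly upstream of the GENCODE gene and holds none of its annotated exons. It therefore cannot show whether GAS5 RNA begins with the motif. The RefSeq starts of SNHG3 and SNHG5 are also the GENCODE starts of RCC1 and ENSG00000271793, so these windows are uncertain as starts of the hosts.

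The levels of the 10 genes were first compared with each other in the NC libraries, on the TPM scale, which corrects for gene length. The lengths used are not given, and the order depends on them. GAS5 has 768 bases in its canonical transcript and 4932 exonic bases over all transcripts, and SNHG8 has 6166 and 6614. GAS5 was the highest with 1065 and 1048 TPM, and SNHG16 was the lowest with 51.2 and 53.9 TPM. In between, in falling order of the mean, stood SNHG5, SNHG6, SNHG1, SNHG3, SNHG8, SNHG12, SNHG7 and SNHG15. The ranges of neighbours in this order did not overlap, except for SNHG12 and SNHG7, whose NC libraries crossed. In the sh-ANP32B libraries the order was the same but for SNHG15 and SNHG7, which changed places with overlapping ranges, and SNHG8 and SNHG12 overlapped as well. All 10 genes stood among the 4234 tested genes with the highest mean TPM, which begin at 41.9 TPM. Together they made 0.261% and 0.254% of the TPM in NC and 0.170% and 0.162% in sh-ANP32B.

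**Figure D1:**
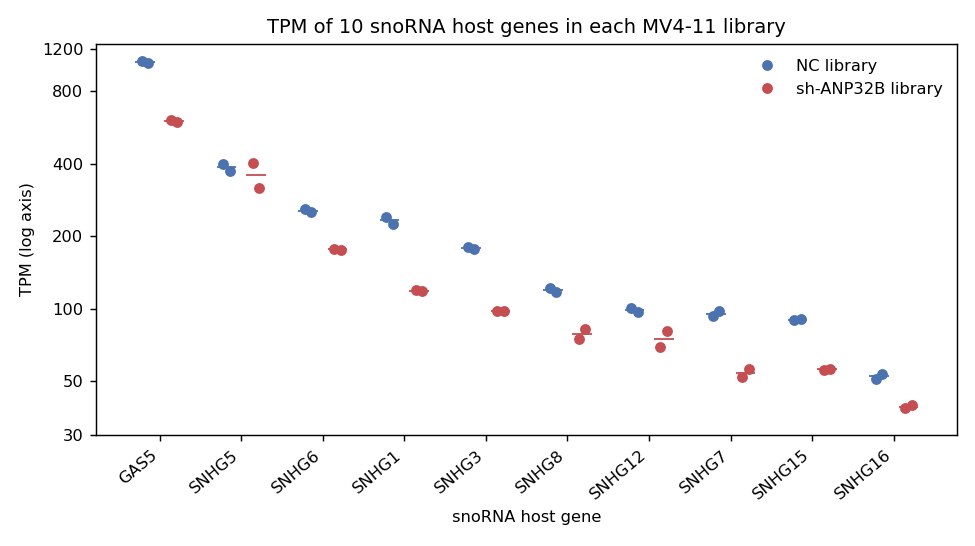
TPM of each of the 10 snoRNA host genes in each library (log axis), with blue points for the 2 NC libraries, red points for the 2 sh-ANP32B libraries and short lines for the group means. Both red points lie below both blue points for each gene other than SNHG5, where the red points at 402 and 316 TPM enclose the blue ones.

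Of the 10 host genes, 9 were lower after ANP32B knockdown, none was higher (26% of all genes were), and SNHG5 did not pass the test. The 9 genes kept between 51.3% (SNHG1) and 76.2% (SNHG12) of their NC mean. The test was limma on log2(TPM + 1) with a Benjamini-Hochberg adjusted p below 0.05 over the 16937 genes tested, and every log2 fold change given is on this scale, sh-ANP32B against NC. Over all genes tested 19.7% were lower by this rule, and among the 4234 genes with a mean above 41.9 TPM, to which the 10 genes belong, 38.9% were. The 2 groups of libraries did not overlap for the same 9 hosts, against 32.1% of all genes with both knockdown libraries below both NC libraries and 48% of those above 41.9 TPM. Over all genes the calls were 3342 lower and 4405 higher, and with median-of-ratios scaling 4201 lower and 3575 higher, while the same count of 9 of the 10 hosts was lower under both. With a log2 fold change beyond 0.5 required as well, the fold limit in the methods of the paper, 7 of the 10 genes were lower, against 10.1% of all genes (10.8% with an unadjusted p). SNHG12 and SNHG16 were inside that limit. The median log2 fold change of the 10 genes was -0.64, that of all genes 0.08, and 7.17% of all genes lay below the median of the 10. For 1 gene alone, the smallest two-sided p of an exact permutation test on 2 and 2 libraries is 0.33, and the adjusted p-values therefore depend on limma's variance estimate across genes. MYC, which encodes a transcription factor of growth and ribosome synthesis, had 376 and 370 TPM in NC and 240 and 236 TPM in sh-ANP32B, and its part in the fall of the host genes was not tested.

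GAS5 (ENSG00000234741) is placed by GENCODE (hg38) on chromosome 1, bases 173858559 to 173868882 of the minus strand, and its canonical transcript has 12 exons and 768 bases. It had 1065 and 1048 TPM in NC and 608 and 595 TPM in sh-ANP32B, which left 56.9% of the NC mean. The 2 knockdown libraries stood close together and far below the control libraries. On the log2 scale the change was -0.81 (SE 0.034, adjusted p = 1.05e-04 from limma). GAS5 made 40.9% and 41.4% of the summed TPM of the 10 genes in NC, and 35.8% and 36.8% in sh-ANP32B. The 3 genes whose centred log2 values over the 4 libraries lay nearest to those of GAS5, among 7145 others whose mean reached 20 TPM, were PGAM1, a glycolytic enzyme, USP1, a deubiquitinase of DNA repair, and RSL24D1, a factor of the large ribosomal subunit. Their Euclidean distances were 0.0163, 0.0180 and 0.0209. Among the 9 other host genes SNHG3 lay nearest to GAS5, at 0.0611, and SNHG5 farthest, at 0.730. With 4 libraries in 2 groups, this likeness mostly restates the size of the fold change.

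SNHG1 (chromosome 11, 62851978 to 62855953, minus strand) fell the most of the 10 genes. It holds 7 annotated snoRNA genes, all in introns of its canonical transcript. It had 240 and 226 TPM in NC and 120 and 119 TPM in sh-ANP32B, a log2 fold change of -0.96 (SE 0.045, adjusted p = 1.35e-04 from limma). SNHG3 (chromosome 1, 28505980 to 28510892, plus strand), the host of SNORA73A and SNORA73B, had 181 and 177 TPM against 97.6 and 98.2 TPM. The knockdown libraries of SNHG3 were nearly equal, and its log2 fold change was -0.87 (SE 0.040, adjusted p = 1.33e-04 from limma). SNHG7 (chromosome 9, 136721366 to 136728184, minus strand), the host of SNORA17A and SNORA17B, had 93.2 and 97.6 TPM against 52.1 and 56.3 TPM. On the log2 scale the change was -0.81 (SE 0.059, adjusted p = 3.74e-04 from limma), close to that of GAS5.

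SNHG15, SNHG8 and SNHG6 each hold 1 annotated snoRNA gene. SNHG15 (chromosome 7, 44983019 to 44986961, minus strand) holds SNORA9 and had 89.8 and 90.4 TPM in NC against 55.9 and 56.4 TPM in sh-ANP32B. On the log2 scale the change was -0.67 (SE 0.046, adjusted p = 3.09e-04 from limma). SNHG8 (chromosome 4, 118278703 to 118285316, plus strand), the host of SNORA24, had 122 and 118 TPM against 75.3 and 82.5 TPM. The log2 fold change of SNHG8 was -0.60 (adjusted p = 8.75e-04 from limma), with more spread between its knockdown than between its control libraries. SNHG6 (chromosome 8, 66920561 to 66926398, minus strand) holds SNORD87 and had 259 and 252 TPM against 178 and 176 TPM. It kept 69.4% of the NC mean, at -0.52 on the log2 scale (adjusted p = 3.50e-04 from limma).

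The smallest falls that passed were those of SNHG16 and SNHG12. SNHG16 (chromosome 17, 76557727 to 76670985, plus strand), the host of SNORD1A, SNORD1B and SNORD1C, had 51.2 and 53.9 TPM in NC and 38.7 and 39.9 TPM in sh-ANP32B. On the log2 scale the change was -0.41 (SE 0.059, adjusted p = 0.00331 from limma). SNHG12 (chromosome 1, 28578538 to 28583132, minus strand), the host of SNORA16A, SNORA44, SNORA61 and SNORD99, had 101 and 96.6 TPM against 69.6 and 80.9 TPM. The knockdown libraries of SNHG12 differed by 0.21 on the log2 scale, less than the gap between the groups. On the log2 scale the change was -0.39 (SE 0.080, adjusted p = 0.0115 from limma), and the adjusted p was 0.0541 in limma without a variance trend, a setting chosen after seeing the data.

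SNHG5 (chromosome 6, 85650491 to 85678932, minus strand), the host of SNORD50B, was the member that did not pass. It had 401 and 374 TPM in NC and 402 and 316 TPM in sh-ANP32B, so that 1 knockdown library stood at the upper NC value and the other below both. On the log2 scale the change was -0.12 (SE 0.11, adjusted p = 0.432 from limma). Its 2 knockdown libraries differed by 0.35 on the log2 scale. Among 1634 genes whose mean reached 100 TPM, 2.14% had knockdown libraries that differed by more. Without sh-ANP32B replicate 1 the log2 fold change of SNHG5 was -0.29 (adjusted p = 0.0167 from limma), and without sh-ANP32B replicate 2 it was 0.05 (adjusted p = 0.510), so 1 library decides its direction. SNHG5 held 23.7% and 19.5% of the summed TPM of the 10 genes in sh-ANP32B, against 15.4% and 14.7% in NC. A difference between the change of SNHG5 and that of the other hosts was not tested.

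**Figure D2:**
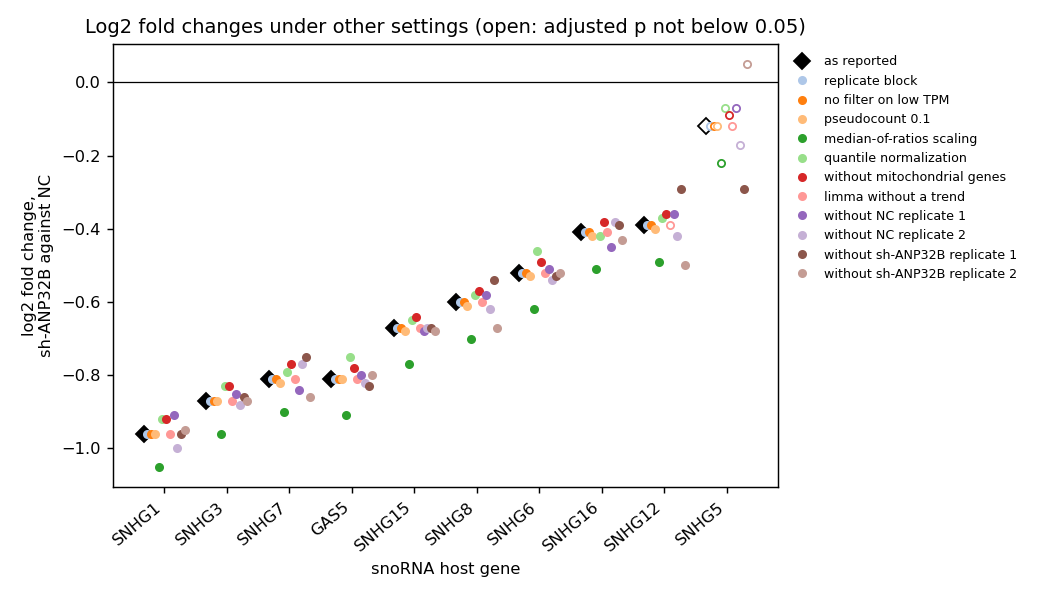
Log2 fold change (sh-ANP32B against NC) of each of the 10 host genes as reported (black diamonds) and under 11 other settings (coloured points), with open symbols where the adjusted p from limma was not below 0.05. SNHG5 is the gene with a point above 0, at 0.05 without sh-ANP32B replicate 2, and the points of the other 9 genes lie between -1.05 and -0.29.

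GENCODE places 25 snoRNA genes inside 9 of the 10 hosts, and those of GAS5 were not analysed here. In SNHG7 and SNHG12 some of these entries cover nearly the same bases, so distinct snoRNAs are fewer than 25. Of the 25, 24 lie in an intron of the canonical host transcript, and 21 of these lie wholly within an exon of another annotated transcript of the host. The exception is SNORA9, which lies in an exon of the canonical transcript of SNHG15. Deposited values were used for 6 of them. The libraries were made with a kit known to select polyadenylated RNA and to fragment it, which recovers mature snoRNAs poorly, so their TPM can also come from unspliced host RNA. The 5 snoRNA sequences that follow (GENCODE, hg38) show what the introns carry. Capitals mark box C and box D in the names that begin with SNORD, and the ACA near the 3′ end in the names that begin with SNORA.
SNORA73A: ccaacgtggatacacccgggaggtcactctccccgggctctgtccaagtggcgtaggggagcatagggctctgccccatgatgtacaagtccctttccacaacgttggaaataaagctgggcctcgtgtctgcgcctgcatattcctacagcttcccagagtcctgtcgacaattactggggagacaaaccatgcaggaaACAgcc
SNORA73B: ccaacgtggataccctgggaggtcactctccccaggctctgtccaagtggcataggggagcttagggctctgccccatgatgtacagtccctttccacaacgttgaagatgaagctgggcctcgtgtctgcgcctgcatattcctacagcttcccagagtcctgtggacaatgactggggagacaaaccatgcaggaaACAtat
SNORD30: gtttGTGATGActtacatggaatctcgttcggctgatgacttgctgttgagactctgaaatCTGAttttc
SNORD99: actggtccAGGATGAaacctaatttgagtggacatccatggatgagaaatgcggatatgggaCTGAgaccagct
SNORD1B: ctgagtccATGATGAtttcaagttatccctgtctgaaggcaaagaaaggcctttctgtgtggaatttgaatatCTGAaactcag
SNORA73A and SNORA73B, also known as U17 and needed for early cleavage of the ribosomal RNA precursor, lie on the plus strand in the first and second introns of SNHG3, at chr1:28507366-28507571 and chr1:28508559-28508762. They share 192 of 206 aligned bases (93.2%), so reads could have been assigned to either. SNORD30 lies in SNHG1 at chr11:62853663-62853732 (minus strand), SNORD99 in SNHG12 at chr1:28578749-28578822 (minus) and SNORD1B in SNHG16 at chr17:76561109-76561192 (plus).

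Of the 6 snoRNA genes, the 2 inside SNHG3 were lower after knockdown and the other 4 did not pass the test. Of all genes 19.7% were lower, so this count gives no result about snoRNAs as a group. SNORA73A had 34.4 and 41.9 TPM in NC and 16.5 and 26.6 TPM in sh-ANP32B, a log2 fold change of -0.83 (SE 0.22, adjusted p = 0.0299 from limma). SNORA73B had 5.93 and 7.66 TPM against 3.17 and 3.25 TPM (log2 fold change -0.88, SE 0.17, adjusted p = 0.00986 from limma). Both values lie near the -0.87 of their host, but both genes also lie inside RCC1, which stood at -0.47. SNORA73A lies wholly within an exon of another SNHG3 transcript, so its value is not independent of that of the host. SNORD30 had 9.88 and 5.52 TPM against 6.69 and 3.71 TPM (adjusted p = 0.281), with overlapping groups. SNORD1B had 2.76 and 2.79 TPM against 2.09 and 1.28 TPM (adjusted p = 0.117), and SNORD99 had 2.14 and 5.84 TPM against 4.47 and 4.92 TPM (adjusted p = 0.551). SNORA61 had 0.156 and 1.70 TPM in NC against 1.60 and 1.80 TPM (adjusted p = 0.283), and its control libraries differed by more than the groups did.

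Several hosts share a start region or exons with protein-coding genes, and the kit is known not to keep the strand of the RNA. ZBTB37, a zinc finger gene that starts 800 bases from GAS5 on the opposite strand, was higher after knockdown, with 3.35 and 3.95 TPM in NC and 6.25 and 6.79 TPM in sh-ANP32B (log2 fold change 0.70, SE 0.15, adjusted p = 0.0150 from limma). It thus moved opposite to GAS5. GAS5-AS1 did not pass, with 4.12 and 3.26 TPM against 5.43 and 3.47 TPM. SLC3A2, the heavy chain of an amino acid transporter, starts 51 bases from SNHG1 and runs the other way. It fell together with SNHG1, from 240 and 232 TPM to 161 and 152 TPM (log2 fold change -0.58, SE 0.047, adjusted p = 4.69e-04).

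RCC1, the nucleotide exchange factor of Ran, starts 37 bases from SNHG3 on the same strand and shares 242 exonic bases with it. RCC1 had 253 and 251 TPM in NC and 185 and 177 TPM in sh-ANP32B (log2 fold change -0.47, adjusted p = 6.01e-04 from limma), a smaller change than that of SNHG3. DIPK1B overlaps 1482 of the 4893 exonic bases of SNHG7 on the opposite strand and was lower by little, with 25.6 and 25.7 TPM against 21.7 and 21.7 TPM (log2 fold change -0.23, adjusted p = 0.0403, and 0.0624 without the mitochondrial genes). PRSS12, a secreted protease across from SNHG8, had 15.7 and 15.4 TPM against 20 and 18 TPM and did not pass (adjusted p = 0.0571). TRNAU1AP, a selenocysteine tRNA factor with 8 exonic bases in common with SNHG12, had 27.5 and 28.1 TPM against 32.3 and 31.3 TPM (adjusted p = 0.0609). MCMDC2 covers 58.9% of the exonic bases of SNHG6 on the opposite strand and was not analysed here, so reads of SNHG6 could have been assigned to it or the reverse. SNHG5 shares 943 exonic bases with ENSG00000271793, a protein-coding gene on the same strand that starts 199 bases away. That gene did not reach 1 TPM in 2 or more libraries and was not tested. SNHG5 also shares 715 exonic bases with the processed pseudogene PKMP3. PKMP3 had 1.82 and 1.09 TPM against 2.35 and 1.91 TPM and did not pass (adjusted p = 0.259 from limma). ENSG00000267546 beside SNHG16 and ENSG00000274356 beside SNHG7 did not pass either, both below 3 TPM.

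**Figure D3:**
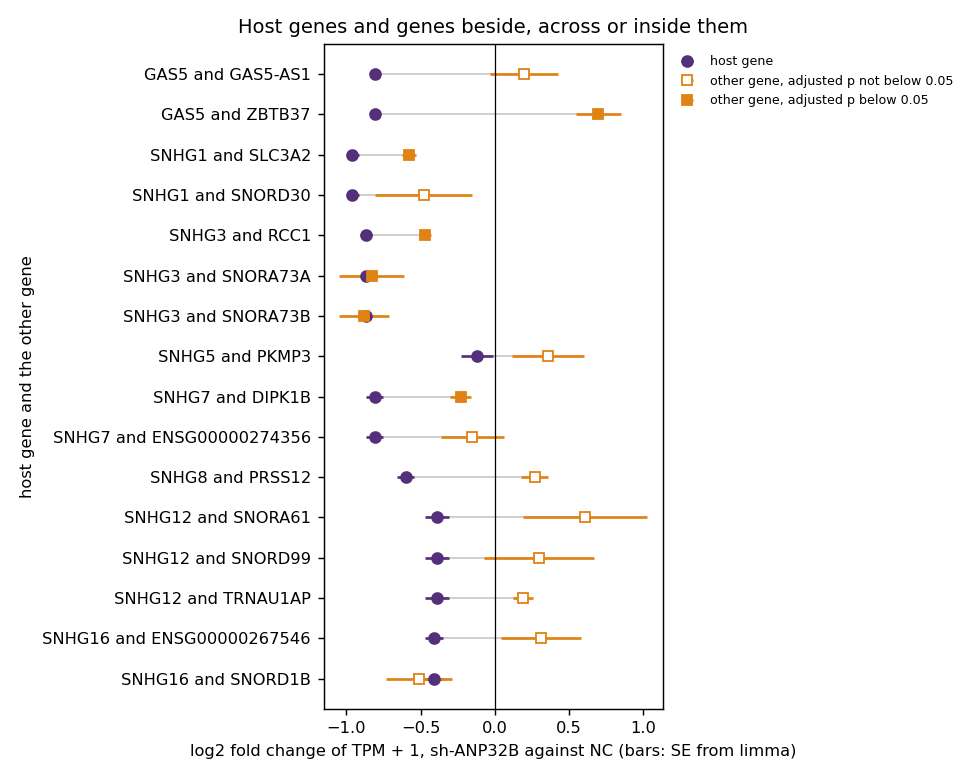
Log2 fold change (sh-ANP32B against NC) of a host gene (purple circles) and of a gene that starts beside it, shares exonic bases with it or lies inside it (orange squares, open where the adjusted p was not below 0.05), with the SE from limma as bars. ZBTB37 lies at 0.70 opposite to GAS5 at -0.81, while SLC3A2, RCC1, SNORA73A and SNORA73B lie below 0 with their hosts.

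Other non-coding snoRNA hosts were read beside the 10 genes. Of 19 on the list, 16 were tested, 8 were lower, 1 was higher and 7 did not pass, with a median log2 fold change of -0.48. Against this, 19.7% of all genes were lower and 26% were higher. SNHG29, the most abundant with 1554 and 1588 TPM in NC, fell to 1141 and 1134 TPM (log2 fold change -0.47, adjusted p = 3.35e-04 from limma). ZFAS1, the host at the ZNFX1 promoter, fell from 185 and 178 TPM to 126 and 120 TPM (log2 fold change -0.56, adjusted p = 5.91e-04). EPB41L4A-AS1 was the lowest of the list at -0.91 (adjusted p = 6.93e-04), with 23.8 and 22.9 TPM against 12.0 and 12.0 TPM. The gene that rose was SNHG14, the long imprinted transcript that carries the SNORD115 and SNORD116 clusters, with 23.1 and 26.9 TPM in NC and 44.3 and 45.1 TPM in sh-ANP32B (log2 fold change 0.82, SE 0.087, adjusted p = 0.00121). The highest TPM of the 7 that did not pass was 10.5, and their log2 fold changes ran from -0.73 (SNHG9) to 0.21 (SNHG11).

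**Figure D4:**
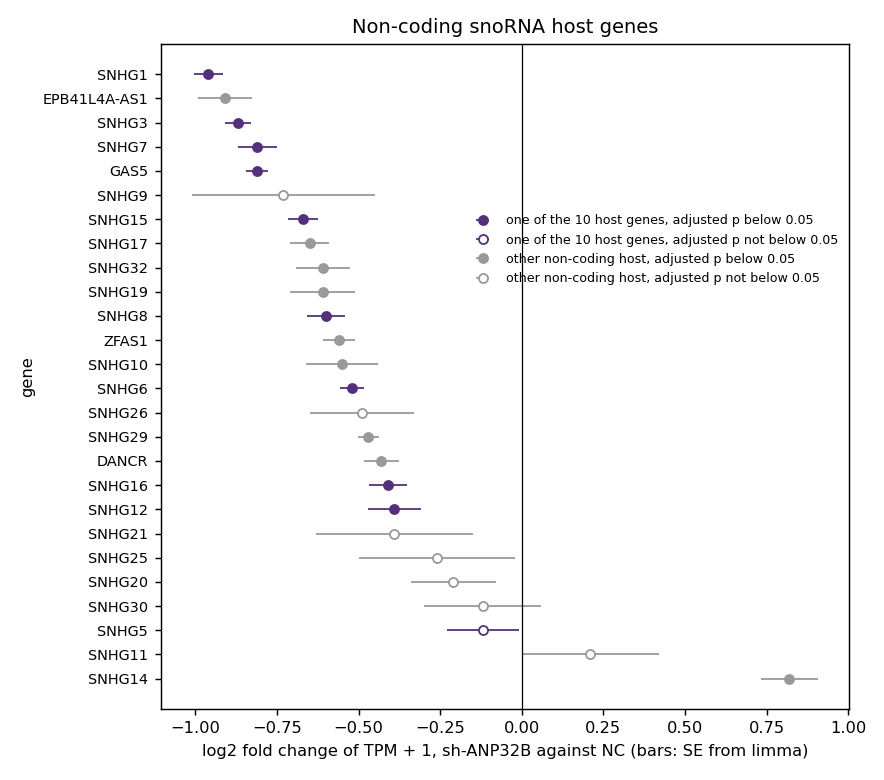
Log2 fold change (sh-ANP32B against NC) of 26 non-coding snoRNA host genes, the 10 described here in purple and 16 others in grey, with the SE from limma as bars and open circles where the adjusted p was not below 0.05. SNHG14 at 0.82 is the filled circle above 0, and SNHG1 at -0.96 has the lowest value.

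Many snoRNAs are carried by protein-coding genes, most of them of the ribosome and its factors. All 38 genes of this list were tested, and GENCODE places a snoRNA gene on the same strand inside 37 of them. Of the 38, 37 were lower and NAP1L4 did not pass, with a median log2 fold change of -0.43. By the same rule 19.7% of all genes were lower, and 38.9% of genes above 41.9 TPM. With a log2 fold change beyond 0.5 required, 15 were lower, beside 10.1% of all genes. GNL3, a nucleolar GTPase, had 254 and 257 TPM in NC and 141 and 138 TPM in sh-ANP32B (log2 fold change -0.86, adjusted p = 1.17e-04 from limma). SNRPB, a core protein of the spliceosome, had 458 and 475 TPM against 264 and 249 TPM (log2 fold change -0.86, adjusted p = 1.69e-04). EIF4A2, an RNA helicase of translation, fell less, from 426 and 393 TPM to 345 and 338 TPM (log2 fold change -0.26, adjusted p = 0.00910). NAP1L4, a histone chaperone, had 72 and 74.5 TPM against 49.3 and 80.3 TPM, with knockdown libraries on either side of the control. Many ribosomal protein genes have processed pseudogenes, which can take reads from them.

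The proteins that bind snoRNAs were followed next. All 4 core proteins of box C/D particles were lower, beside 19.7% of all genes and 38.9% of genes above 41.9 TPM. FBL (fibrillarin), the methyltransferase, fell from 362 and 336 TPM to 192 and 176 TPM (log2 fold change -0.92, adjusted p = 2.76e-04 from limma), and NOP56 fell from 265 and 278 TPM to 154 and 163 TPM (log2 fold change -0.77). SNU13, which binds the kink turn formed by boxes C and D, and NOP58 had log2 fold changes of -0.62 and -0.50. Of the 4 core proteins of box H/ACA particles, 3 were lower and 1 was higher, and 26% of all genes were higher. DKC1 (dyskerin), the pseudouridine synthase, had 130 and 120 TPM in NC against 80.8 and 77.4 TPM (log2 fold change -0.65, adjusted p = 6.38e-04), while NHP2 stood at -0.69 and GAR1 at -0.34 on the log2 scale. NOP10 was the exception, with 117 and 121 TPM in NC and 146 and 142 TPM in sh-ANP32B (log2 fold change 0.26, adjusted p = 0.00546). Of 10 assembly factors, 7 were lower, beside the same 19.7% and 38.9%, and 3 did not pass. NUFIP1, which holds immature box C/D particles together, fell the most, from 20.4 and 20.2 TPM to 7.46 and 8.40 TPM (log2 fold change -1.25, SE 0.10, adjusted p = 5.02e-04), and RUVBL1, an ATPase of the assembly machinery, stood at -0.74 on the log2 scale. ZNHIT6 and SHQ1 had 24.3 and 29.2 against 22.2 and 22.1 TPM and 25.3 and 26.2 against 22.8 and 20.3 TPM, and neither passed.

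Since the spliced hosts are known as targets of NMD, its factors were read beside them. Of 10 NMD factors, 5 were lower, 2 were higher and 3 did not pass, with a median log2 fold change of -0.11. UPF3B, which links the decay factors to exon junctions, had 40.7 and 42.6 TPM in NC and 30.2 and 29.1 TPM in sh-ANP32B (log2 fold change -0.48, adjusted p = 0.00256 from limma). SMG1, the kinase that phosphorylates UPF1, was higher, with 39.1 and 40 TPM against 50.4 and 50.6 TPM (log2 fold change 0.35, adjusted p = 0.00469). SMG9, a partner of that kinase, stood at -0.36 on the log2 scale (adjusted p = 0.0441, and 0.0560 without the mitochondrial genes), and the endonuclease SMG6 did not pass at 0.33. The shares of this list were 50% lower and 20% higher, beside 19.7% and 26% of all genes and 38.9% lower among genes above 41.9 TPM. Of the 5 proteins of the exon junction complex, MAGOH (-0.63), RBM8A (-0.31) and EIF4A3 (-0.19) were lower, while MAGOHB and CASC3 did not pass. The turnover of RNA was not measured.

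The mRNAs with a 5′ TOP motif are known to share growth control with hosts that carry it. The motif stood at the RefSeq start site of 2 of the 8 hosts shown, and a shared control was not tested. The window of GAS5 lay upstream of its GENCODE gene and could not show the motif in GAS5 RNA. All 15 on the list that encode no ribosomal protein were lower, with a median log2 fold change of -0.48. Of all genes 19.7% were lower, and of genes above 41.9 TPM 38.9%. HNRNPA1, a splicing factor, fell from 1003 and 955 TPM to 499.6 and 480.1 TPM (log2 fold change -1, adjusted p = 1.09e-04 from limma). EIF4B had 281 and 280 TPM against 247 and 246 TPM (log2 fold change -0.19), and PABPC1, the poly(A)-binding protein, had the smallest change at -0.16 (adjusted p = 0.0151), which turned to 0.07 with quantile normalization (adjusted p = 0.0863). EEF1G had the largest, at -2.29, with 1958 and 1824 TPM against 309 and 480 TPM, but 2632 of its 2639 exonic bases also belong to ENSG00000255508, which has the same strand, so its value is uncertain. Of 82 ribosomal protein genes chosen by symbol, 74 were lower, none was higher and 8 did not pass, beside the same shares. Their median log2 fold change was -0.41. Upstream of these transcripts, 12 genes of mTORC1 and its TOP-binding target LARP1 were tested, and 5 were lower, 3 were higher and 4 did not pass. These shares, 41.7% lower and 25% higher, lie near those of genes above 41.9 TPM (38.9% lower) and of all genes (26% higher). EIF4EBP1, the translational repressor phosphorylated by mTORC1, fell from 412 and 408 TPM to 196 and 205 TPM (log2 fold change -1.03, adjusted p = 9.69e-05). MLST8, a subunit of the complex, stood at -0.70 on the log2 scale. The inhibitors TSC2 and DEPTOR were higher, at 0.59 (49.2 and 56.3 against 80.0 and 79.7 TPM) and 0.83 (2.76 and 3.28 against 5.64 and 6.64 TPM).

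**Figure D5:**
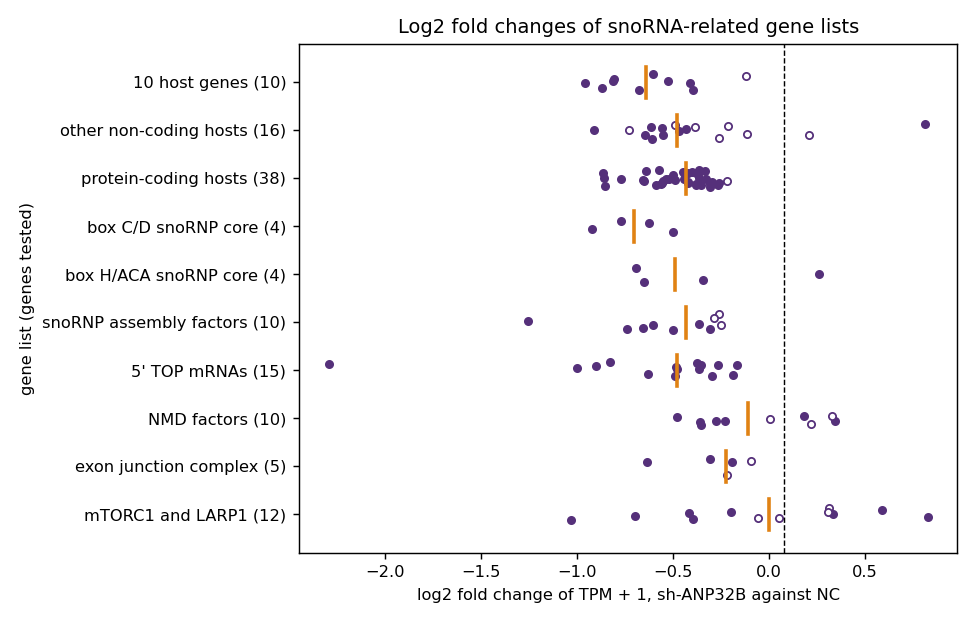
Log2 fold change (sh-ANP32B against NC) of each tested gene in 10 lists, with filled points for an adjusted p below 0.05 in limma, orange lines for the median of each list and a dashed line for the median of all genes, 0.08. The medians of the 10 host genes (-0.64) and of the box C/D core (-0.70) are the lowest, and the NMD and mTORC1 lists have points on both sides of 0.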

How the data were processed

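RNA of MV4-11 cells was sequenced for the study from 2 NC and 2 sh-ANP32B libraries, made with the TruSeq RNA Sample Prep Kit. Reads were aligned by the authors with HISAT2 2.0.5 (hg38), and TPM values for each gene were deposited. The unit was read from the values, which are not whole and sum to between 997271 and 998546 per library. The tool behind the TPM, the annotation and the strand setting are not given in the sources used here. No gene in the table has a mean under 0.5 TPM. The knockdown columns carry the mark S3 and were matched to the labels by the replicate number. With TPM the depth is unknown, so no counting error can be given.

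Log2(TPM + 1) was fitted with limma 3.58.1 in R 4.3.3 (lmFit, and eBayes with a trend) without a covariate, over the 16937 genes that reached 1 TPM in 2 or more libraries. P-values were adjusted over all of them by the Benjamini-Hochberg method, and a gene passed below 0.05. DESeq2, which the authors used for their own comparison, needs counts and was not run. Of the 18885 identifiers 17290 had a symbol. Positions, exons and snoRNA genes come from GENCODE 44, promoters from RefSeq. Python 3.11.15, pandas 2.3.3, Biopython 1.88 and matplotlib 3.10.9 were used.

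The members and lists were chosen with earlier results of these data known. The text names every member, ANP32B, MYC, the 2 highest and 2 lowest genes of each other list by fold change, all genes of lists of up to 5, genes that start within 2000 bases of a member or share its exons, listed snoRNA genes inside members, and the 3 genes nearest to GAS5. SNHG29, ZFAS1 and NR3C1 were named beyond this rule after their values were seen. Alternatives were the replicate number as a block, no filter, a pseudocount of 0.1, median-of-ratios scaling, quantile normalization, removal of mitochondrial genes, other call limits, each library left out, and, added after seeing the data, limma without a trend. Some results for genes under these rules are not reported here.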

Additional observations from a re-analysis of the deposited data

How the results depend on the processing

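The 10 host genes were refitted under 11 other settings each, and GAS5, SNHG1, SNHG3, SNHG6, SNHG7, SNHG8, SNHG15 and SNHG16 kept their direction and an adjusted p below 0.05 in limma under every one. SNHG12 kept its direction, but its value of -0.39 had an adjusted p of 0.0541 in limma without a trend, a setting chosen after seeing the data, which left 8 of the 10 genes lower. SNHG5 ran from -0.29 without sh-ANP32B replicate 1 to 0.05 without sh-ANP32B replicate 2, with adjusted p between 0.0167 and 0.739 over all settings. Leaving out each library in turn, with the lone library assumed to vary like the other group, gave -0.83 to -0.80 for GAS5 and -0.50 to -0.29 for SNHG12, and between 9 and 10 of the 10 genes were lower. With a log2 fold change beyond 1 required as well, 0 of the 10 genes were called. The same held for the other non-coding hosts and the protein-coding hosts, with 0 called in either direction. With a log2 fold change beyond 0.5 the protein-coding hosts went from 37 to 15 lower, with an adjusted or an unadjusted p. Quantile normalization moved the median of all genes by -0.11, median-of-ratios scaling by -0.09, and all 10 hosts lay below the median of all genes under each. Under quantile normalization 31 protein-coding hosts, 12 of the 15 TOP mRNAs and 64 ribosomal protein genes were lower.

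With the replicate number as a block, 9 of the 10 genes were lower and no call of the 10 genes changed (GAS5 -0.81, adjusted p = 0.00115). Libraries of the same number deviated from their group means with a correlation of -0.0232 over genes, and with 2 numbers the labels do not show a pairing. TPM hold no depth, so the limit that counting sets on low genes such as SNORA61 is unknown.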

Other observations

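GAS5 RNA is known to bind the glucocorticoid receptor through a stretch that resembles its DNA site, so the receptor gene and 7 of its targets were read. NR3C1, the receptor, did not pass, with 29.6 and 28.0 TPM in NC and 31.4 and 27.8 TPM in sh-ANP32B (adjusted p = 0.753 from limma). Of the 8 genes, 1 was higher (12.5%, beside 26% of all genes), 2 were lower (25%, beside 19.7%) and 5 did not pass, so the shares give no result about this list. SGK1, a kinase induced by the receptor, rose from 6.32 and 5 TPM to 21.5 and 20.7 TPM (log2 fold change 1.74, SE 0.13, adjusted p = 3.98e-04 from limma). FKBP5, the co-chaperone that restrains the receptor, fell from 34.6 and 37.0 TPM to 23.8 and 22.2 TPM (log2 fold change -0.62, adjusted p = 0.00184), and ZBTB16 stood at -0.97 on the log2 scale (adjusted p = 0.0243). TSC22D3 had 26.8 and 25.9 TPM against 30.6 and 30.4 TPM and did not pass (adjusted p = 0.0505).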
